A study of Mus musculus with 4 samples.

Results

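The chaperone and chaperonin genes are the protein-coding genes whose symbols begin with Hspa, Hspb, Hspd, Hspe or Hsph, with Dnaja, Dnajb or Dnajc, or with Cct and a digit. In the gene annotation used here (GENCODE M21), 79 of 21938 protein-coding genes carried such a symbol. They are described here by the peaks of a Foxr2 binding experiment at their promoters. Binding of Foxr2, a forkhead transcription factor, was measured by CUT&RUN, in which an antibody tethers a nuclease to a protein so that the DNA around it is released and sequenced. The antibody recognised the V5 tag of an introduced Foxr2. The Foxr2 p53LOF group held 2 replicates of a neurosphere line from a C57BL/6J mouse brain tumor, made by in utero electroporation of Foxr2 together with p53 loss of function. The V5 control group held 2 replicates from a separate in utero electroporation model on the same strain, with the genotype H3.3G34R and no V5 tag. All 4 samples were cross-linked with 0.1% formaldehyde for 1 minute. The groups therefore differed in driver, in tumor model and in the tag at once, and these cannot be told apart here. The labels do not say that the replicates of a group came from separate cultures, and each group rests on a single line or model.

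Chaperones keep other proteins from clumping and help them fold. Hsp70 proteins bind exposed stretches of unfolded chains in cycles of ATP hydrolysis, J-domain proteins (the Dnaj genes) deliver chains to Hsp70 and trigger that hydrolysis, and exchange factors such as Hsp110 reset it. Chaperonins work differently: the cytosolic CCT complex and the mitochondrial Hsp60 enclose a chain in a barrel, and CCT is known for folding actin and tubulin. Small heat shock proteins hold unfolded chains without ATP. After heat or proteotoxic stress many of these genes are switched on by heat shock factors, and those of the endoplasmic reticulum by the unfolded protein response, while many are also expressed in unstressed, growing cells.

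The peak lists of the Foxr2 p53LOF replicates held 31909 and 38580 peaks, and those of the V5 control replicates 308 and 124. A peak list gives no read total, so precision comes from the fragments at a summit. The fold enrichment of a peak is the fragments at its summit plus 1, divided by the background of its own library plus 1. Passing the minimum fold of 6 took 13 fragments in Foxr2 p53LOF replicate 1 and 18 in replicate 2. The 95% intervals below are exact Poisson intervals of the fragments at the summit and cover counting error only. Foxr2 itself had a peak over its coding sequence on chromosome X in both Foxr2 p53LOF replicates, and in neither control replicate. The folds were 5.74 and 6.24, so replicate 1 was below the minimum of 6. This peak served as a check of the labels, since the line carries an introduced Foxr2, and was not taken as a binding site.

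Promoter peaks at chaperone genes were found in the Foxr2 p53LOF line alone. A promoter peak was one that touched the window from 1 kb before to 1 kb after any protein-coding transcript start of the gene. Replicate 1 had such a peak at 66 of the 79 genes and replicate 2 at 66, and each control replicate at 0. Both groups were thus fully apart, but with 2 libraries against 2 the exact two-sided permutation test gave p = 0.333, the smallest value this design allows. Over all protein-coding genes, replicates 1 and 2 of the Foxr2 p53LOF line had a promoter peak at 11730 and 11944, while the controls had 27 and 19. The nearest control peak to any chaperone gene lay 5673 bp from Dnajb3.

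Peaks were then filtered as in the study's methods, by overlap with a control peak, fold, −log10 q and length. Where filtered peaks of the 2 Foxr2 p53LOF replicates overlapped, the shared stretch was taken as a reproducible site, and 11947 were found in the genome. A reproducible site lay at the promoter of 54 of the 79 chaperone genes (68.4%), against 39.4% of all protein-coding genes. Before the filter, 65 chaperone genes (82.3%) had a promoter peak in both replicates, against 51.5% of all protein-coding genes. Of the remaining 14 genes, 2 had a peak in 1 replicate and 12 had none. The chaperonins were near complete, with 7 of 8 CCT genes and 2 of 2 genes of the mitochondrial chaperonin. Hsp70 and Hsp110 genes followed with 11 of 14, J-domain genes with 29 of 45 and small heat shock genes with 3 of 8. Both genes for Hsp70-binding or Hsp27-associated proteins, Hspbp1 and Hspbap1, had a site, with folds of 7.95 and 14.1 and of 11.0 and 14.8.

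**Figure D1:**
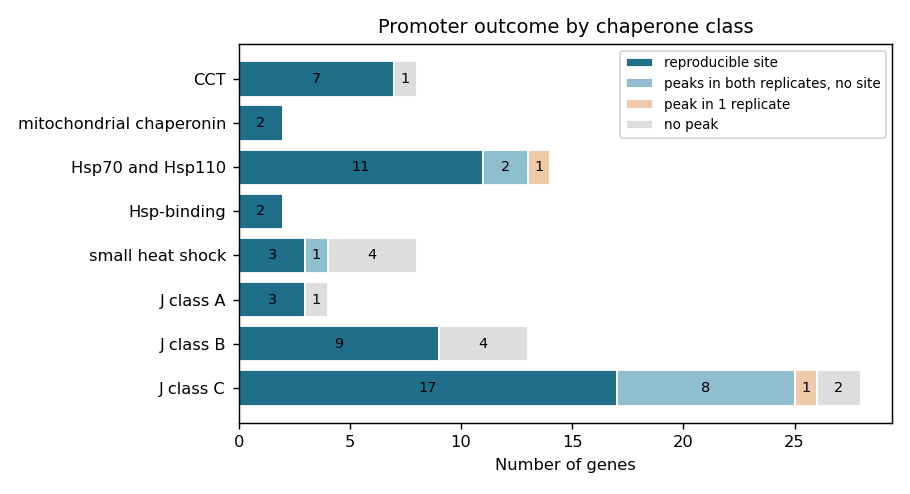
Number of genes in each chaperone class (horizontal axis), split by what was found at their promoters in the 2 Foxr2 p53LOF replicates. The CCT bar holds 7 genes with a reproducible site and 1 with no peak, whereas the small heat shock bar holds 3 and 4.

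The 54 genes rested on 53 distinct sites, since Hspd1 and Hspe1 share a single site. Ranked by the lower of the 2 replicate folds, the chaperone sites had a median of 11.1 (quartiles 8.62 and 17.1), beside 10.2 (7.95 and 13.7) over all 8642 genes with a promoter site. The upper tail differed more than the middle. A lower fold above 20 was seen at 10 chaperone genes (18.5%) and at 8.4% of all genes with a site. A lower fold above 10 was seen at 31 (57.4%), against 50.3% of all genes with a site. No test was made of these differences, since genes are not replicates of the line.

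**Figure D2:**
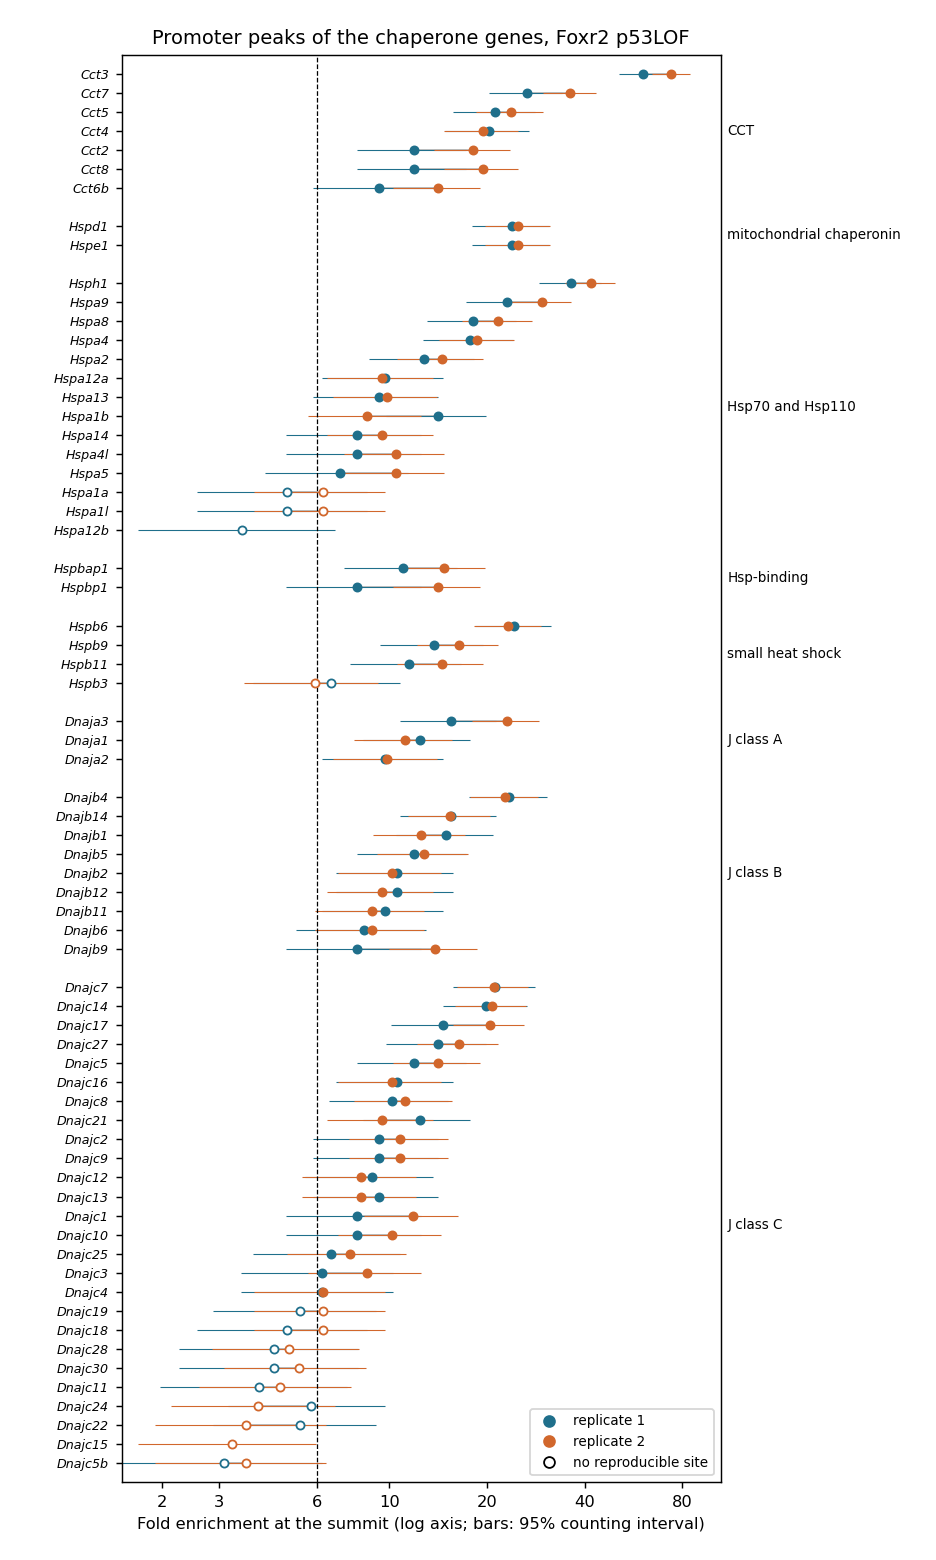
Fold enrichment at the promoter summit (log axis) of every chaperone gene with a promoter peak, in Foxr2 p53LOF replicate 1 and replicate 2, grouped by class. Bars are 95% counting intervals, open symbols mark genes without a reproducible site and the dashed line is the minimum fold of 6. Cct3 lies apart from all others at 60.5 and 73.9.

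The CCT complex is built of 2 rings of related subunits, and its genes carried the highest single fold of the set and a median lower fold of 19.4. Cct3 encodes the gamma subunit. Its site at chr3:88294954-88298688 had a fold of 60.5 in replicate 1 (95% interval 50.9 to 71.5, 136 fragments) and 73.9 in replicate 2 (64.6 to 84.2, 224 fragments). Only 2 of the 8642 genes with a promoter site had a higher lower fold. Its summits lay 385 and 351 bp upstream of the nearest Cct3 start, and the site also came within 1 kb of a start of Tsacc, a cochaperone gene of the testis. The 200 bases around the middle of the summits are printed because they carry the highest fold of the set, on the strand of Cct3 (GRCm38.p6, chr3:88296649-88296848).
Cct3 summit: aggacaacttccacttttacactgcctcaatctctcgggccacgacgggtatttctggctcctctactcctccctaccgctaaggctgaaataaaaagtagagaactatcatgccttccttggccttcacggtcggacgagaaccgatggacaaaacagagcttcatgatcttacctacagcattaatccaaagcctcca
None of the 6 motifs searched (heat shock element, CCAAT box, ER stress response element, ETS, NRF1 and YY1) was found in these letters.

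Cct7, the eta subunit, followed within the complex, with 26.5 in replicate 1 (20.3 to 34.1) and 36.1 in replicate 2 (29.7 to 43.5) at chr6:85450315-85453723. Its summits lay 211 and 198 bp into the transcribed part, in the UTR, and the site was shared with Pradc1. The bases around the Cct7 summits are shown for comparison with those of Cct3 (chr6:85451619-85451818, strand of Cct7).
Cct7 summit: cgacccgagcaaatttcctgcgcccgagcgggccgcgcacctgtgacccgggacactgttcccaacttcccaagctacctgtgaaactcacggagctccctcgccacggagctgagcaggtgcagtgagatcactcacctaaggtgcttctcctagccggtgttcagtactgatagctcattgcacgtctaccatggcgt
Cct5, the epsilon subunit, had folds of 21.2 (15.7 to 28.1) and 23.7 (18.5 to 29.8), at a site shared with Fam173b. Cct4, the delta subunit, had 20.3 (14.9 to 27) and 19.4 (14.8 to 25). Both were above the medians of all promoter sites, 10.6 in replicate 1 and 12.2 in replicate 2.

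Cct2 and Cct8, the beta and theta subunits, had the same fold of 11.9 in replicate 1 (7.95 to 17.3). In replicate 2 Cct2 had 18.1 (13.7 to 23.5) and Cct8 had 19.4 (14.8 to 25). Cct6b, which replaces the zeta subunit in testis, had the lowest CCT site, with 9.28 (5.84 to 14.1) and 14.1 (10.3 to 19), shared with Zfp830. Cct8l1, a testis relative of Cct8, had no promoter peak. All 7 CCT genes with a site therefore lay above a fold of 9 in both replicates. The broadly expressed zeta subunit Cct6a is annotated as a processed transcript in this release and falls outside the rule, and its site had folds of 21.7 and 23.0. Tcp1, the alpha subunit, is outside the symbol pattern and had 9.28 and 15.8.

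Hspd1 encodes the mitochondrial chaperonin Hsp60 and Hspe1 its lid, Hsp10. The genes are transcribed away from each other from a common promoter on chromosome 1. A single site at chr1:55085441-55089660 covered both starts, with a fold of 23.9 in replicate 1 (18 to 31.1) and 25 in replicate 2 (19.7 to 31.2). The replicates placed the summit on different sides. In replicate 1 it lay 216 bp upstream of Hspd1, inside the first part of Hspe1, and in replicate 2 it lay 387 bp upstream of Hspe1, inside an intron of Hspd1. Between these summits lies the promoter window of Hspe1 in RefSeq (250 bases before to 50 after the start; GRCm38.p6, chr1:55087898-55088197, plus strand), printed because it holds a heat shock element, in capitals.
Hspe1 promoter: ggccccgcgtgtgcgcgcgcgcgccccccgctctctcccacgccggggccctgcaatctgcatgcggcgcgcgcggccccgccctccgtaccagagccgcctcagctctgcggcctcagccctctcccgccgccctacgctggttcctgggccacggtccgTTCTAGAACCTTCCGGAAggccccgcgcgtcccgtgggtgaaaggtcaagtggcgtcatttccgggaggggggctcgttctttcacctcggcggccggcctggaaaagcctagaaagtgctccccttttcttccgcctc
The element searched for was GAANNTTCNNGAA, which is 3 alternating units, on both strands. The match begins 89 bases before the Hspe1 start and holds overlapping copies, so that alternating TTC and GAA units run through it. Its nearer summit was 320 bp from the copy at chr1:55088059-55088071, in replicate 2.

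The Hsp70 and Hsp110 genes with a site had a median lower fold of 9.53, and their range ran from 7.07 to 36.2. Hsph1, the cytosolic Hsp110 that acts as an exchange factor for Hsp70, had folds of 36.2 (28.9 to 44.9) and 41.7 (34.8 to 49.6) at chr5:149635472-149637551. This was the second highest of the set, and 52 of 8642 genes ranked above it. No other gene shared its site, and its summits were 169 and 195 bp upstream of a start. Hsph1 also holds a heat shock element, here 251 and 277 bp from the summits. The window is shown for that match (chr5:149636266-149636565, minus strand).
Hsph1 promoter: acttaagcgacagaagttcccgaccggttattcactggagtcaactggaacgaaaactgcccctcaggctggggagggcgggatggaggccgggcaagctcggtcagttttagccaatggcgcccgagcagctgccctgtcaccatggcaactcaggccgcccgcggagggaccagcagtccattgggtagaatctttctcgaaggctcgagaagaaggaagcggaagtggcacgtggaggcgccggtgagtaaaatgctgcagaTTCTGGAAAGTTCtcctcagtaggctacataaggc

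Hspa9, the Hsp70 of mitochondria, had 23 (17.2 to 30.1) and 29.6 (23.8 to 36.3). Hspa8, the constitutive Hsc70 of the cytosol, had 18.1 (13.1 to 24.5) and 21.7 (16.8 to 27.5). Hspa4, a second Hsp110 relative, had 17.7 (12.7 to 24) and 18.7 (14.2 to 24.2). These genes are expressed in most unstressed cells. Hspa2, known for its role in male germ cells, had 12.8 and 14.5. Hspa12a had 9.72 and 9.53, Hspa13 of the endoplasmic reticulum 9.28 and 9.86, Hspa14 of the ribosome-associated complex 7.95 and 9.53, and Hspa4l 7.95 and 10.5. Hspa5, the BiP chaperone of the endoplasmic reticulum, had the lowest site of the class, with 7.07 (4.15 to 11.4) and 10.5 (7.25 to 14.8).

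Stress-inducible Hsp70 is encoded by Hspa1a and Hspa1b, neighbouring copies on chromosome 17, so that some reads may fit both. Their RefSeq promoter windows agree at 296 of 300 bases (98.7%). Counted from 1 at the 5′ end, from Hspa1a to Hspa1b, the 4 changes are C44T, T47C, T249G and C276T. Both windows are shown for these bases, in capitals (GRCm38.p6, minus strand, chr17:34972107-34972406 for Hspa1a and chr17:34959189-34959488 for Hspa1b).
Hspa1a promoter: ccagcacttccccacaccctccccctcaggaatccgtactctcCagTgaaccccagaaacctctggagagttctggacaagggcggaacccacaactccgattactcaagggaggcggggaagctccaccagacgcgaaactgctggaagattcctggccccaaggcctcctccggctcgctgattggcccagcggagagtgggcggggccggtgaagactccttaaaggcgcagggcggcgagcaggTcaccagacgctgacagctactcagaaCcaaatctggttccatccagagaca
Hspa1b promoter: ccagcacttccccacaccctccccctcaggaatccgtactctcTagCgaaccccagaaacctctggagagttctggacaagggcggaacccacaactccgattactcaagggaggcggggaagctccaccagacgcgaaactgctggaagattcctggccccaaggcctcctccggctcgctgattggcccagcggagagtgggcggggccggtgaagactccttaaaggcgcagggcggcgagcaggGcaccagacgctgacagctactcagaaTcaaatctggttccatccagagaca
Hspa1b had a site with 14.1 in replicate 1 (9.75 to 19.9) and 8.54 in replicate 2 (5.64 to 12.5). Hspa1a had 4.86 in replicate 1 (2.56 to 8.57) and 6.24 in replicate 2 (3.83 to 9.68), so it failed the fold minimum in replicate 1. The intervals of the copies did not overlap in replicate 1 and did overlap in replicate 2. How reads that fit both copies were placed is not given in the sources used here, and its part in this difference was not tested. The Hspa1a peak is also the promoter peak of Hspa1l, a testis Hsp70, so the same folds stand for both. Hspa12b had a peak in replicate 1 only, at 3.53 (1.69 to 6.82).

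J-domain genes are divided by structure into classes A, B and C. The 29 with a site had a median lower fold of 9.72. Among class A, which resembles bacterial DnaJ most closely, Dnaja3 of mitochondria had 15.5 (10.8 to 21.4) and 23 (18 to 29). Dnaja1 had 12.4 and 11.2, Dnaja2 9.72 and 9.86, and Dnaja4 had no peak.

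In class B, Dnajb4 ranked highest, with 23.4 (17.6 to 30.6) and 22.7 (17.7 to 28.7) at a site shared with Fubp1. Dnajb4 had a second promoter site at another start, with 9.28 and 11.5. Dnajb14 of the endoplasmic reticulum membrane had 15.5 and 15.4, but its summits lay 3598 and 2108 bp upstream, in a long site that also comes within 1 kb of the start of H2afz. Dnajb1, the main heat-inducible partner of Hsp70, had 15 (10.5 to 20.9) and 12.5 (8.89 to 17.1), with no other gene at its site. The remaining class B sites, at Dnajb2, Dnajb5, Dnajb6, Dnajb9, Dnajb11 and Dnajb12, had lower folds between 7.95 and 11.9. No promoter peak was found at Dnajb3, Dnajb7, Dnajb8 or Dnajb13, of which Dnajb3, Dnajb8 and Dnajb13 are known from testis.

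Class C is the most varied, and 17 of its 28 genes had a site. Dnajc7, which binds both Hsp70 and Hsp90, had 21.2 (15.7 to 28.1) and 21 (16.2 to 26.8), shared with Nkiras2. Dnajc14 had 19.9 (14.6 to 26.5) and 20.7 (15.9 to 26.4), shared with Tmem198b. Dnajc17 had 14.6 and 20.4, Dnajc27 14.1 and 16.4, and Dnajc5, the cysteine string protein of synaptic vesicles, 11.9 and 14.1. The sites of Dnajc1, Dnajc2, Dnajc8, Dnajc9, Dnajc10, Dnajc12, Dnajc13, Dnajc16 and Dnajc21 had lower folds between 7.95 and 10.2. Dnajc12 had a second, weaker promoter site, with 6.63 and 7.88. Dnajc5b and Dnajc5g, relatives of Dnajc5 known from testis, had no site. Dnajc6, the neuronal auxilin that uncoats clathrin vesicles, had no promoter peak.

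The lowest sites of the set were also in class C. Just inside the fold minimum was Dnajc25, with 6.63 (3.82 to 10.8) and 7.56 (4.86 to 11.3). Dnajc3, an inhibitor of the stress kinase PERK, had 6.19 (3.5 to 10.3) and 8.54 (5.64 to 12.5). Dnajc4 had 6.19 (3.5 to 10.3) and 6.24 (3.83 to 9.68). These are the values nearest the minimum from above. Just outside was Hspb3, with 6.63 (3.82 to 10.8) and 5.91 (3.58 to 9.27). Dnajc19, of the mitochondrial import motor, had 5.30 (2.87 to 9.14) and 6.24 (3.83 to 9.68). Dnajc18 had 4.86 (2.56 to 8.57) and 6.24 (3.83 to 9.68), the same folds as Hspa1a and Hspa1l. The intervals of all 8 genes included 6 in both replicates, and so did those of Dnajb6, Dnajc12 and Dnajc13, which had a site. In all, 6 of the 54 genes with a site had intervals that included 6 in both replicates, and 19 in at least 1.

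Other genes had weaker peaks in both replicates and no site. Dnajc24 had 5.74 (3.18 to 9.7) and 3.94 (2.13 to 6.8). Dnajc22 had 5.30 (2.87 to 9.14) and 3.61 (1.9 to 6.37). Dnajc30 had 4.42 (2.26 to 7.99) and 5.26 (3.09 to 8.46). All 3 were below 6 in both replicates. Dnajc28 had 4.42 (2.26 to 7.99) and 4.93 (2.84 to 8.05). Dnajc11 had 3.98 (1.97 to 7.41) and 4.60 (2.6 to 7.63), and Dnajc5b had 3.09 (1.41 to 6.21) and 3.61 (1.9 to 6.37). The intervals of all these genes included 6 in both replicates as well. Dnajc15 had a peak in replicate 2 only, at 3.29 (1.68 to 5.94). Each gene with a promoter peak and no site failed the fold minimum in at least 1 replicate, and none was removed by a control peak or by length.

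Among the small heat shock genes, 4 of 8 had no promoter peak and 3 of 8 (37.5%) had a site, close to the 43.6% of all protein-coding genes with no peak and the 39.4% with a site. Hspb1, the widely studied Hsp27, and Hspb2, Hspb7 and Hspb8 were these 4, with none in either replicate. Hspb6 had 24.3 (18.4 to 31.6) and 23.3 (18.3 to 29.4), at a site that comes within 1 kb of the start of Proser3. Its summits lay 1124 and 1052 bp upstream of its only protein-coding transcript start. They lay on either side of the gene's annotated 5′ end at 30552178, at 30552144 in replicate 1 and 30552216 in replicate 2. Hspb9, a testis gene, had 13.7 and 16.4, with summits 1601 and 1199 bp upstream, at a site shared with Kat2a. Hspb11, a subunit of intraflagellar transport named for its fold, had 11.5 and 14.5 with summits 152 and 114 bp into the transcript. Thus Hspb11 alone of the 3 had both summits within 1 kb of a protein-coding transcript start of its own.

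Sorted by compartment, the endoplasmic reticulum genes (8 listed) had sites in 8 of 8 and the mitochondrial genes (9 listed) in 5 (55.6%), beside 39.4% of all protein-coding genes. The lower folds of the 8 endoplasmic reticulum genes ran from 6.19 to 9.28, with a median of 7.95. They comprise Hspa5 and Hspa13, and the J-domain cochaperones Dnajb9, Dnajb11, Dnajc1, Dnajc3, Dnajc10 and Dnajc25. The list is partial. Other genes of the endoplasmic reticulum that it does not hold were Dnajc14 with 19.9 and 20.7, Dnajb14 with 15.5 and 15.4, Dnajb12 with 10.6 and 9.53, Dnajc16 with 10.6 and 10.2, and Dnajc18, which had no site. Outside the symbol pattern they include Hsp90b1 with 24.7 and 26.6, Sil1 with 13.3 and 13.1 and Hyou1 with 11.0 and 12.2. The low range of the 8 therefore describes the genes picked and not the compartment. With a minimum fold of 10, 0 of the 8 had a site, beside 19.8% of all protein-coding genes and 39.2% of the chaperone genes. Of the 5 mitochondrial genes with a site, 4 were above 15 in both replicates (Hspd1, Hspe1, Hspa9 and Dnaja3). The fifth was Dnajc4. Dnajc11, Dnajc15, Dnajc19 and Dnajc30 had none. The lists of both compartments were drawn up with earlier results of these data known and carry no test.

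The replicates ranked the chaperone sites alike, with a Spearman correlation of 0.825 over 54 genes, beside 0.826 over all 8642 genes with a promoter site. This is given as a description, because the points share libraries and a fold minimum. Replicate 2 had the higher fold at 38 of 54 genes (70.4%), and at 75.1% of all genes with a site. At 0 of the 54 genes did the intervals of the 2 replicates fail to overlap. Hspa1b went furthest against the trend. In the order of the 54 genes, neighbours could be told apart by their intervals in both replicates at 1 of 53 steps, that from Cct3 to Hsph1. At the other 52 steps neighbours overlapped in at least 1 replicate.

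**Figure D3:**
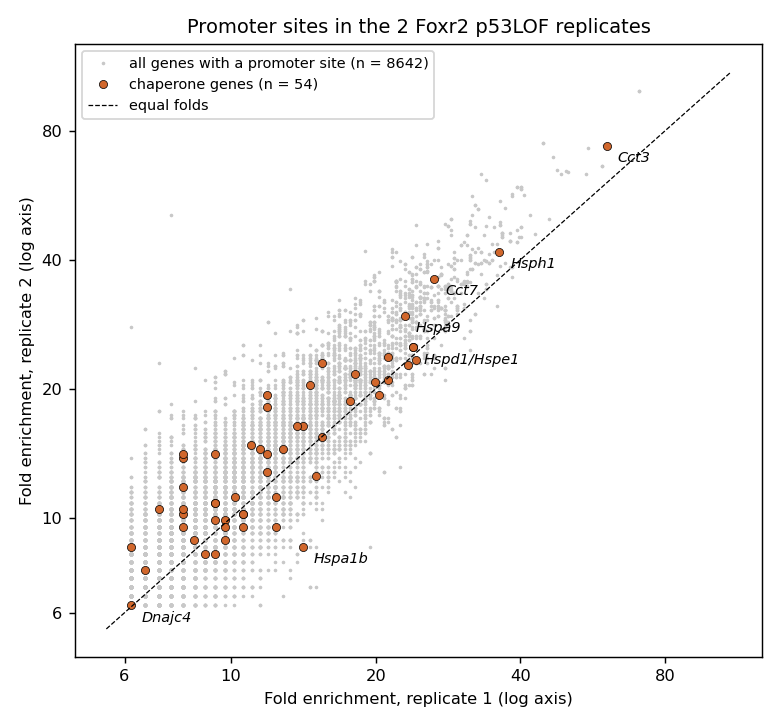
Fold enrichment of promoter sites in Foxr2 p53LOF replicate 1 (horizontal) against replicate 2 (vertical), both on log axes, for all 8642 genes with a promoter site (grey) and the 54 chaperone genes (orange). Most chaperone genes lie above the line of equal folds, as 70.4% were higher in replicate 2, and Hspa1b lies below it.

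Summits lay close to transcript starts. The median distance from the nearest start was 195 bp in replicate 1 and 198 bp in replicate 2, and both summits were within 500 bp at 46 of 54 genes (85.2%), against 80.3% of all genes with a site. The replicates' summits lay a median of 64.5 bp from each other. In replicate 1, 31 summits were upstream of the nearest start and 23 downstream or at it. By annotation, 21 lay upstream of the gene, 13 in an intron, 11 in a UTR, 8 in coding sequence and 1 in a noncoding exon. The site also came within 1 kb of the start of another protein-coding gene at 21 of 54 chaperone genes (38.9%), and at 26.7% of all genes with a site. Of the 10 chaperone genes with a lower fold above 20, this held for 8 (80%), among them Hspd1 and Hspe1, each the neighbour of the other on a single site. Over all 726 genes with a lower fold above 20 it held for 46.8%. A peak at such a promoter cannot be assigned to either gene.

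**Figure D4:**
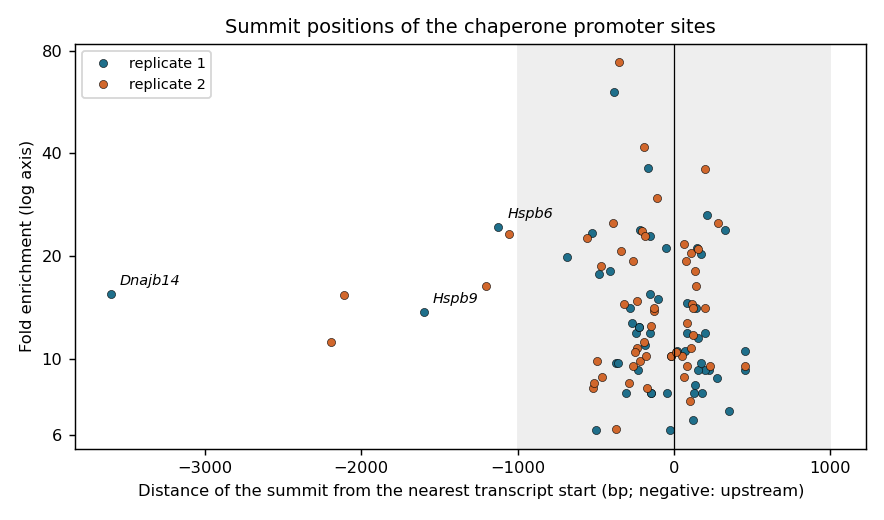
Distance of the summit from the gene's nearest protein-coding transcript start (horizontal, bp, negative upstream) against fold enrichment (log axis). The 54 chaperone genes are shown in both Foxr2 p53LOF replicates. The grey band is the promoter window, and the summits of Dnajb14, Hspb6 and Hspb9 fall upstream of it in both replicates.

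The site share moved with the CpG content of the promoter. RefSeq windows were matched for 66 of 79 chaperone genes (83.5%) and 16917 of all genes (77.1%), of which 41.2% had a promoter site. A window with a CpG observed-to-expected ratio of 0.6 or more was taken as CpG-rich. This held for 78.8% of the matched chaperone genes and for 52.3% of all matched genes. Among CpG-rich promoters, 45 of 52 chaperone genes (86.5%) had a site, against 67.3% of all such genes. Among the other promoters, 2 of 14 chaperone genes (14.3%) had a site, against 12.5% of all such genes, and these were Hspa1b and Hspb9. The median ratio was 0.878 over 47 chaperone genes with a site and 0.542 over 19 without. Hspb1, Hspb7 and Hspb8, with no peak, had ratios of 0.549, 0.284 and 0.446. CpG-rich promoters without a site were those of Dnaja4, Dnajb3, Dnajc5g, Dnajc6, Dnajc15, Dnajc19 and Dnajc28. Dnaja4 had the highest ratio of these, 1.01, and no peak in either replicate.

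**Figure D5:**
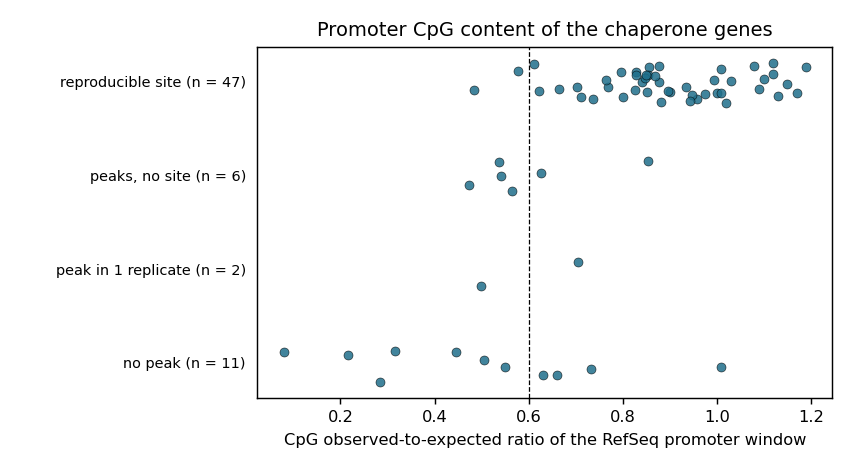
CpG observed-to-expected ratio of the RefSeq promoter window (horizontal) for the 66 matched chaperone genes, in rows by what was found at the promoter in the Foxr2 p53LOF replicates. The dashed line is the ratio of 0.6, and 45 of 47 genes with a reproducible site lie above it. Points are spread vertically for legibility only.

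Sequence motifs were counted in the same windows, on both strands, as a description. The heat shock element was found in 4 of 66 chaperone genes (6.06%), against 0.585% of all matched genes. These were Hspd1 and Hspe1, which share it, Hsph1 and Dnajb6, and all 4 had a site, as did 41.4% of the 99 matched genes with this element. The Dnajb6 match is shown with 30 bases on either side (chr5:29735822-29735894, plus strand).
Dnajb6 promoter: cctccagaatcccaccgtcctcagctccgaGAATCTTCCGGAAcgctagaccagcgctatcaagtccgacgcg
The ER stress response element, CCAAT and CCACG with 9 bases between, was found in Hspa5 and Dnajc3 (3.03%, against 0.171%). The stretches around these matches are printed, because both genes act in the endoplasmic reticulum (chr2:34771995-34772073 and chr14:118937797-118937875, plus strand).
Hspa5 promoter: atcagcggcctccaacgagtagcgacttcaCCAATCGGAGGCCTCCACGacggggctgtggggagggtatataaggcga
Dnajc3 promoter: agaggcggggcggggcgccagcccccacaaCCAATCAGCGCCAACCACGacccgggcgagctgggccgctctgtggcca
The genes with a heat shock element had lower folds from 36.2 (Hsph1) to 8.39 (Dnajb6), and those with an ER stress response element had 7.07 and 6.19.

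The ETS sequence CCGGAAGT was found in 5 of 66 chaperone genes (7.58%), Cct8, Dnaja1, Dnajc1, Dnajc7 and Dnajc14, against 5.89% of all matched genes. All 5 had a site, as did 74.7% of the 996 matched genes with this sequence. The matches of Cct8 and Dnajc7 are shown as those of a chaperonin subunit and of the highest class C gene (chr16:87495869-87495936 and chr11:100619623-100619690, minus strand).
Cct8 promoter: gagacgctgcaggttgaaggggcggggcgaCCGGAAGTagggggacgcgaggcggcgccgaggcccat
Dnajc7 promoter: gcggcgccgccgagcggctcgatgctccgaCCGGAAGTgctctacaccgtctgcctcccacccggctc
The matches lay 215 and 234 bp from the Cct8 summits and 362 and 361 bp from those of Dnajc7. A CCAAT box, which is also part of the ER stress response element, was found in 27 chaperone genes (40.9%) and in 42.3% of all matched genes. The NRF1 core CGCATGCG was found in Cct5 alone (1.52%, against 2.88%), and the YY1 core AAGATGGCG in Dnajc7, Dnajc13 and Hspbp1 (4.55%, against 2.23%).

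The same sequences were sought in the 200 bases centred on the summit of either replicate at the 53 chaperone sites. The heat shock element was found at 2 (3.77%), Cct4 and Hspa8, against 0.347% of 7487 promoter sites. The element shared by Hspd1 and Hspe1 lies outside these windows. The ETS sequence was found at 2 (3.77%), Dnajc8 and Hspa13, against 2.3%. The CCAAT box was found at 11 (20.8%), against 23.3%, the YY1 core at Dnajb4 (1.89%, against 2.23%), and the ER stress response element and the NRF1 core at 0. The median GC content of these windows was 59.2% at chaperone sites and 60.8% at all promoter sites. A match is a run of letters and not a shown binding site.

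Beyond their promoters, 22 chaperone genes had a reproducible site elsewhere, in the gene body or up to 10 kb beyond its ends (27.8%, against 25.7% of all protein-coding genes). Many of these came within 1 kb of the start of a neighbouring gene. Dnajc4, whose own promoter site was among the lowest, had a site near the start of Fkbp2 with folds of 28.7 and 31.9. Dnajb7, without a promoter peak, had the site of St13 nearby, with 24.7 and 32.9. Dnajc6 had the site of Leprot, with 16.3 and 26.0. Hspa1a and Hspa1l had the site of Lsm2, with 16.3 and 19.7. Sites farther than 1 kb from any start of another protein-coding gene included those near Dnajb12, with 14.6 and 22.0, and Cct8, with 8.39 and 13.1. None of the 17 RefSeq pseudogene copies of chaperone genes had a peak in either Foxr2 p53LOF replicate.

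Other genes of the folding pathway, outside the symbol pattern, were looked at in 5 lists. Of 37 genes, 32 (86.5%) had a promoter site, against the 39.4% of all protein-coding genes given above, with a median lower fold of 11.4. All 4 genes of the Hsp90 family and all 11 Hsp90 cochaperones had a site, as did 9 of 11 Hsp70 exchange factors and partners, 6 of 8 CCT and prefoldin genes, and 2 of 3 heat shock factor genes. The highest were Hsp90b1, the Hsp90 of the endoplasmic reticulum, with 24.7 and 26.6, and St13, an Hsp70 partner, with 24.7 and 32.9. Sugt1 had 22.5 and 27.9, Stub1, a ubiquitin ligase that binds Hsp70, 22.1 and 33.8, and Ahsa1, which activates Hsp90, 20.3 and 29.6. Hsf1, the main heat shock factor, had 17.7 and 21.7. Bag3, Bag5, Pfdn1, Vbp1 and Hsf4 had no site. RNA levels of these genes were not analysed here.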

How the data were processed

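V5 CUT&RUN was available for 2 Foxr2 p53LOF and 2 V5 control libraries, grouped by their labels. Per the labels and methods, the authors trimmed reads with Trimmomatic 0.39, aligned them to mm10 with BWA 0.7.17, removed duplicates with Picard 2.26.6 and called peaks with MACS2 2.2.7.1, library by library. No control library is named for peak calling. The fold enrichment in the deposited lists is a MACS2 ratio. Their −log10 p and q values, also deposited by the authors, belong to a single library each. A score column deposited by the authors holds 10 times the −log10 q as a whole number. A fold therefore ranks peaks within a library.

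Here, a Foxr2 p53LOF peak was removed if it overlapped a control peak by 10 bp or more, had a fold or −log10 q of 6 or less, or was 10000 bp or longer, as in the methods. The methods' overlap with open chromatin was not used here. A site needs 1 bp shared by filtered peaks of both replicates and takes the highest fold of each. Fragments at a summit were recovered from the folds and p-values (background search from 0.3 to 4 in steps of 0.0005 on folds up to 30, whole within 0.02). Positions are in GRCm38, counted from 1. Promoter windows came from RefSeq (GRCm38.p6), 250 bases before to 50 after each start. No window was matched for Cct4, Dnajc11, Dnajc12, Dnajc18, Dnajc2, Dnajc22, Dnajc30, Dnajc5, Dnajc5b, Hspa13, Hspa8, Hspa9 and Hspb2. Windows of 200 bases at the summits were read from the GRCm38.p6 genome. Work was done in Python 3.11.15 with numpy 2.4.6 and scipy 1.17.1. Steps were tested on simulated data, where 1900 of 1900 planted sites were recovered with 0 wrong. The planted folds were the same in both replicates, and removal by control peaks was not scored. The test therefore does not bear on counting error at sites near the minimum.

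The members, lists and motifs were chosen with earlier results of these data known. Every member is named, with intervals for the 15 genes with the highest lower fold, the CCT and mitochondrial chaperonin genes, genes lost to the filter and those just inside and outside the fold minimum. Further members with intervals, and the fold of 20 for the upper tail, were chosen after the values were seen. The genes' promoter sites were recounted under other fold minimums, windows, starts, overlaps and control rules, and without each replicate.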

Additional observations from a re-analysis of the deposited data

How the results depend on the processing

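The count of 54 chaperone genes with a promoter site stayed within 1.5 times of itself under 13 of 14 alternatives, and the share of chaperone genes was above that of all protein-coding genes under all 14. With a minimum fold of 10 the count fell to 31 (39.2%, against 19.8% of all protein-coding genes), and the median lower fold of the remaining sites was 15.4, since that setting leaves only the higher sites. It removed the sites of all 8 listed endoplasmic reticulum genes, as their lower folds reached 9.28 at most. That list is partial, as stated above. Without a minimum on fold or q it was 64. Requiring both summits inside the promoter window gave 50, without Dnajb14, Dnajc8, Hspb6 and Hspb9. Leaving out a Foxr2 p53LOF replicate gave median folds of 11.9 to 12.6, since the fold is then no longer the lower of 2, and counts of 55 to 58. Dividing folds by the median of their chromosome gave a median of 11.9. The count of 65 genes with peaks in both replicates before the filter stayed between 65 and 66. No paired analysis was possible because the labels do not say that the replicate numbers pair libraries of the 2 groups, and the site counts and median folds are descriptions within the Foxr2 p53LOF line.

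With 13 to 18 fragments needed at the fold minimum, genes near it could not be placed firmly on either side. The control lists are short, and with 2 libraries in each group the exact permutation test could not go below 0.333.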
